A study of Mus musculus with 40 samples.

Results

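RGD-binding integrin subunits are the 9 genes that encode the α and β chains of the integrins that recognize the arginine-glycine-aspartic acid (RGD) motif. They comprise the α chains *Itgav*, *Itga5*, *Itga8* and *Itga2b* and the β chains *Itgb1*, *Itgb3*, *Itgb5*, *Itgb6* and *Itgb8*. Members were chosen by gene name from the 54513 gene rows that each of the 3 deposited expression tables holds, and all 9 were found. Their RNA was measured by RNA-seq in CD11b+ cells, the myeloid cells sorted from mouse brain by flow cytometry, in 35 samples.

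In the GL261 experiment at 21 days post-implantation (DPI), C57BL/6 mice with intracranial GL261 mouse glioma cells were compared with naive, tumor-free C57BL/6 mice (3 samples a group, 2 animals per sample). The tumor-bearing mice received water (vehicle), the integrin-blocking peptide 7aaRGD or the control peptide 7aaRAE through osmotic pumps, the peptides at 2 mg/ml. In 7aaRAE the RGD motif is replaced by arginine-alanine-glutamic acid. The GL261 experiment at 28 DPI held 4 vehicle and 4 7aaRGD samples, 3 samples of anti-PD-1 antibody (10 mg/kg) and 3 of the combination RGD + aPD-1, each from 1 mouse. By the study's methods, mice of the control groups were injected intraperitoneally with IgG instead of anti-PD-1. The study's methods place the 28 DPI experiment in C57BL/6 mice, while its sample titles read nude mice. The U87-MG experiment used human U87-MG glioma cells in athymic nude mice (Foxn1nu), which lack mature T cells, with vehicle, 7aaRGD and 7aaRAE groups at 21 DPI (3 samples a group). All animals were male. The implanted cells carried fluorescent reporters, GL261 tdTomato and luciferase, U87-MG red fluorescent protein. Naive nude mice were not analysed here, nor were the anti-PD-1 and combination samples numbered 4. Nothing in the 28 DPI or U87-MG tables therefore compares tumor-bearing with tumor-free brain.

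An integrin is a pair of 1 α and 1 β chain, and neither chain reaches the cell surface as a receptor alone. The αv chain, encoded by *Itgav*, pairs with β1, β3, β5, β6 or β8. The α5 and α8 chains pair with β1, and αIIb (*Itga2b*) pairs with β3 on platelets. These receptors bind RGD-bearing proteins of the extracellular matrix such as fibronectin, vitronectin and osteopontin (SPP1), and the bridging protein MFG-E8. Microglia use αvβ3 and αvβ5 in the uptake of dying cells, and αvβ6 and αvβ8 are known for the activation of latent TGF-β.

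Promoter sequences are shown for *Itgav* and *Itgb5*, which were lower in tumor-bearing mice, and for *Itga5*, which was higher. They are RefSeq windows of 300 bases on GRCm38.p6, from 250 bases before to 50 bases after the start of transcription, printed 5′ to 3′ on the gene's strand. RefSeq windows matched 8 of the 9 members, all but *Itgb3*. Capitals mark the letters of 3 motifs, searched on both strands: GAGGAA, the core bound by the myeloid ETS factor PU.1 (TTCCTC on the other strand), TGANTCA, the AP-1 site, and GGGCGG, the GC box bound by SP and KLF factors (CCGCCC on the other strand). No match of one motif overlapped a match of another in these windows. The window of *Itgav* lies on the + strand at chr2:83724147-83724446, that of *Itgb5* on the + strand at chr16:33829415-33829714 and that of *Itga5* on the - strand at chr15:103366742-103367041.
Itgav: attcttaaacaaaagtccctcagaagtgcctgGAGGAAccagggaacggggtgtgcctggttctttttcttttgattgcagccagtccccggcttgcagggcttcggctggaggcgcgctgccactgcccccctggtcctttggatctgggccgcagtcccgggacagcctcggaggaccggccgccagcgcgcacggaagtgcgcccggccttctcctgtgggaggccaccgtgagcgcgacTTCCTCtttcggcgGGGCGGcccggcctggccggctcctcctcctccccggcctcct
Itgb5: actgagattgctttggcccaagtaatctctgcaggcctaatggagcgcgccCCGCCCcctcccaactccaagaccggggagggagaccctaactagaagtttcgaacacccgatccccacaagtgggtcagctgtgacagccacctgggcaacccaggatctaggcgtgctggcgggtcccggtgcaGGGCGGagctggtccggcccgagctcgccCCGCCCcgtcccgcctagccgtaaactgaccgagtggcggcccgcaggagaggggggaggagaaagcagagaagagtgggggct
Itga5: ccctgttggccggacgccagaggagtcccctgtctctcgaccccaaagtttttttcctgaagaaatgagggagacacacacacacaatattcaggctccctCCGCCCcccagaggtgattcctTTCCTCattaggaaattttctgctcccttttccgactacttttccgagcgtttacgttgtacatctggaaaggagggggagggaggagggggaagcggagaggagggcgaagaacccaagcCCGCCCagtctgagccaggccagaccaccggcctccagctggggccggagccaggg
The *Itgav* window held 2 matches of GAGGAA and 1 GC box. The *Itgb5* window held 3 GC boxes and no match of GAGGAA. The *Itga5* window held 1 match of GAGGAA and 2 GC boxes. None of these 3 windows held TGANTCA. Among all 32817 RefSeq promoter windows of the same length, 28.3% held GAGGAA, 35.6% held GGGCGG and 7.81% held TGANTCA, so the first 2 motifs are common in promoters of any kind.

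Levels are given as RPKM, the reads of a gene divided by its length and by the reads of the library, which allows genes to be compared per length. The deposited values equal RPKM plus a constant of 2, which was subtracted. The depth of each sample is unknown, since the tables hold no counts. The sorted cells held the myeloid identity genes at high levels in every group, with 7 of 7 genes (among them *Csf1r*, *Tyrobp*, *Spi1* and *Itgam*) at a mean of at least 1 RPKM and a summed level of 3147 to 5223 RPKM over all samples. *Itgam*, which encodes CD11b itself, was at 115 ± 4.32 RPKM (SD, n = 3) in naive mice and at 59.5 ± 7.16 (n = 3) in GL261 vehicle mice at 21 DPI. Markers of other cell types were measurable too. The highest sum in any sample was 1.96 RPKM for neuron, 5.95 for mural, 18.6 for lymphocyte, 25.9 for astrocyte, 26.7 for endothelial and 40.4 for oligodendrocyte lineage markers. The epithelial markers reached 318 RPKM, in a naive sample, and ranged from 22.3 to 318 RPKM among the naive samples. In naive mice only 1 of these 5 markers had a mean of at least 1 RPKM. Differences were tested on log2(RPKM + 1) with limma over all protein-coding genes at a mean of at least 1 RPKM, with Benjamini-Hochberg adjusted p-values and a threshold of 0.05. Nothing in the labels ties samples of 1 group to separate cultures or litters, and at 21 DPI each sample pools animals, so p-values describe the spread between these samples. In bulk RNA, fewer cells of a type and less RNA per cell cannot be told apart.

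Of the 9 members, 5 were expressed in CD11b+ cells and 4 were not above 1 RPKM in any sample. The expressed chains were αv, α5, β1, β3 and β5, and these 5 passed the filter on low values in every comparison. *Itgb5* encodes the β5 chain (ENSMUSG00000022817, mm10 chr16:33829665-33949338, + strand). It was the highest member in all 11 groups, from a group mean of 199.8 RPKM in GL261 vehicle mice at 21 DPI to 897 RPKM in naive mice, where it ranked 31 among 21936 protein-coding genes. *Itgb1* encodes β1, the common partner of many α chains (ENSMUSG00000025809, chr8:128685654-128733200, + strand), and ranked next with group means of 71.8 to 126 RPKM. *Itgav* (ENSMUSG00000027087, chr2:83724397-83806916, + strand) had group means of 10.02 to 32.8 RPKM. *Itga5*, the α chain of the fibronectin receptor α5β1 (ENSMUSG00000000555, chr15:103344286-103366763, - strand), had group means of 9.09 to 50.9 RPKM. *Itgb3* (ENSMUSG00000020689, chr11:104608000-104670476, + strand) had the widest relative range of these 5, from 2.80 to 27.1 RPKM.

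**Figure D1:**
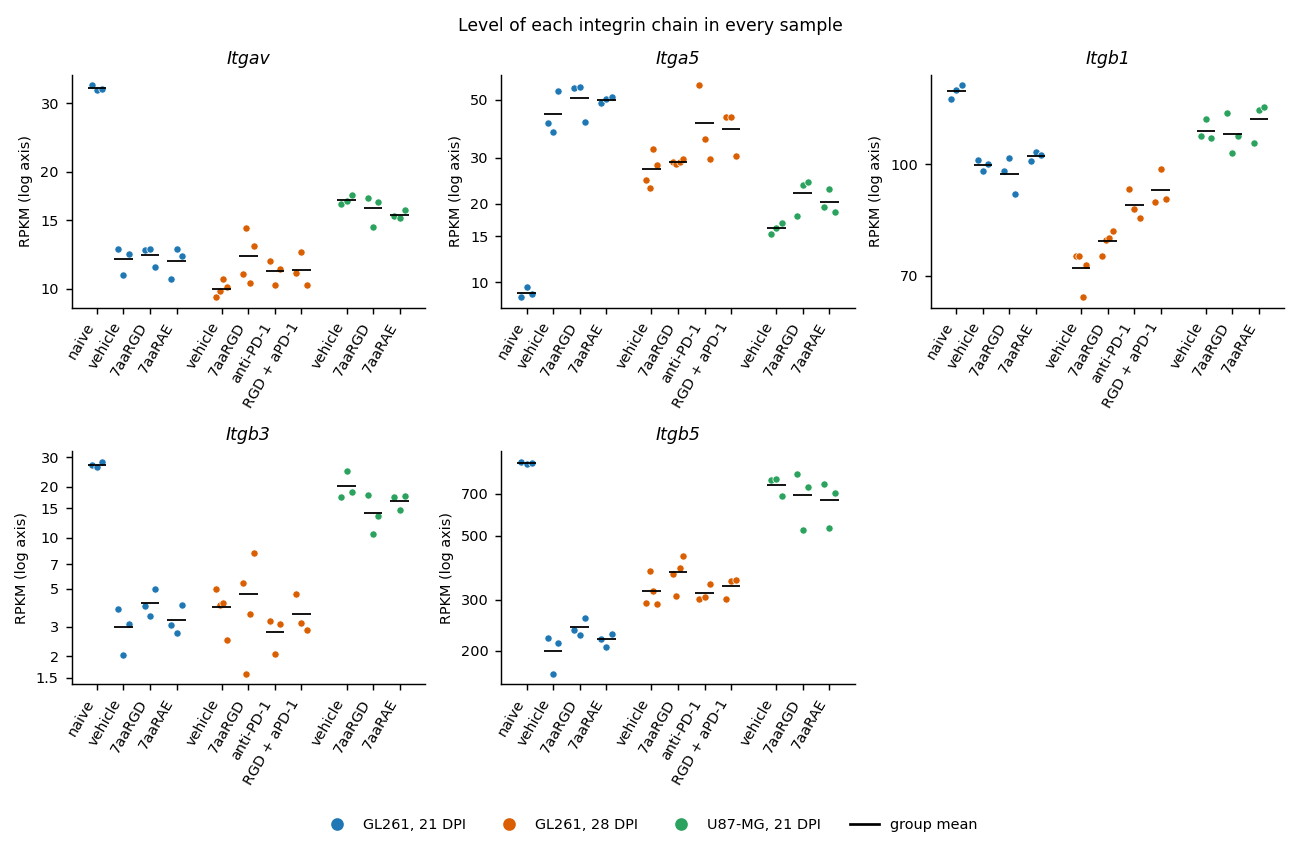
Each point is 1 sample, each black line a group mean, and the vertical log axes give RPKM with a range of their own in each panel. *Itgav*, *Itgb3* and *Itgb5* are highest in naive mice, where *Itga5* is lowest with all samples under 10 RPKM, and at 28 DPI all anti-PD-1 and combination samples lie above all vehicle samples for *Itgb1*.

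The 4 remaining chains were near the limit of the tables. *Itgb6* (ENSMUSG00000026971, chr2:60598292-60722643, - strand), the β chain of an epithelial receptor, was between -0.00233 and 0.00690 RPKM in all samples, and at exactly 0 in the 14 samples at 28 DPI. *Itgb8* (ENSMUSG00000025321, chr12:119158022-119238802, - strand) was at most 0.113 RPKM. *Itga8* (ENSMUSG00000026768, chr2:12106632-12301922, - strand), the partner of β1 in mesenchymal cells, was at most 0.436 RPKM. *Itga2b* (ENSMUSG00000034664, chr11:102453297-102470122, - strand), the platelet α chain, was at most 0.718 RPKM, in anti-PD-1 sample 3. These levels say that the 4 transcripts were scarce in the sorted population, and with the depth unknown no lower bound of detection can be given. *Itga2b* was at 0.0142, 0.00908 and 0.0272 RPKM in naive mice and at 0.372, 0.156 and 0.236 RPKM in GL261 vehicle mice, so the groups did not overlap. When no filter on low values was applied, this difference had an adjusted p of 0.00784 (limma), the only one of the 4 to pass in any comparison.

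**Figure D2:**
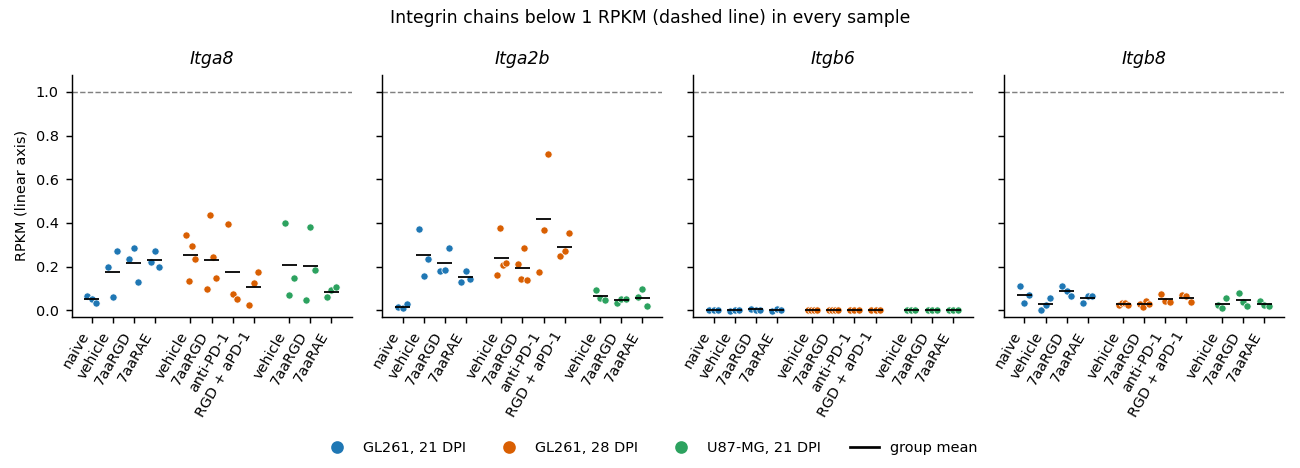
Each point is 1 sample of the 4 scarce chains on a linear RPKM axis, with a black line at each group mean and a dashed line at 1 RPKM, the limit used as a filter. All samples lie below the dashed line, and the highest value is *Itga2b* at 0.718 RPKM in the anti-PD-1 group.

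Since a receptor needs both chains, the less abundant chain of each pair was taken as a measure of how much of that pair the RNA could provide, without regard to protein. Each pair was taken alone, so a chain shared by several pairs, such as αv or β1, was counted in full for each. The measure is therefore an upper limit for each pair and does not divide a shared chain among its partners. In naive mice the lower chain of αvβ5 and of αvβ1 was *Itgav* at 32.8 ± 0.54 RPKM (SD, n = 3), and that of αvβ3 was *Itgb3* at 27.1 ± 0.95 RPKM. The lower chain of α5β1 was *Itga5* at 9.09 ± 0.40 RPKM. In GL261 vehicle mice at 21 DPI α5β1 came first instead of last, at 44.2 ± 8.75 RPKM, followed by αvβ5 and αvβ1 at 11.9 ± 0.95 RPKM and αvβ3 at 2.98 ± 0.90 RPKM, and none of these ranges overlapped. In U87-MG vehicle mice the αv chain at 16.9 ± 0.46 RPKM and *Itga5* at 16.1 ± 0.83 RPKM set the limits of αvβ3, αvβ5 and α5β1, and their ranges overlapped. For αvβ6, αvβ8, α8β1 and αIIbβ3 the lower chain stayed under 1 RPKM in all samples.

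The composition of the chains showed the same exchange. *Itgav* made up 78.1% ± 0.97 (SD, n = 3) of the summed α chain RPKM in naive mice and 21.3% ± 2.63 in GL261 vehicle mice at 21 DPI. *Itga5* made up 21.7% ± 0.99 and 77.9% ± 2.70 in these groups. At 28 DPI *Itgav* held 26.9% ± 2.17 (n = 4) in the vehicle group, and in U87-MG vehicle mice 50.9% ± 0.38 (n = 3). Among β chains *Itgb5* held the largest share in every group, from 65.8% ± 2.89 in GL261 vehicle mice at 21 DPI to 85.4% ± 0.33 in naive mice. *Itgb3* never exceeded 2.68% of the β chain RPKM in a sample. The 3 tables were normalized separately, so values from different experiments are set side by side without a test.

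**Figure D3:**
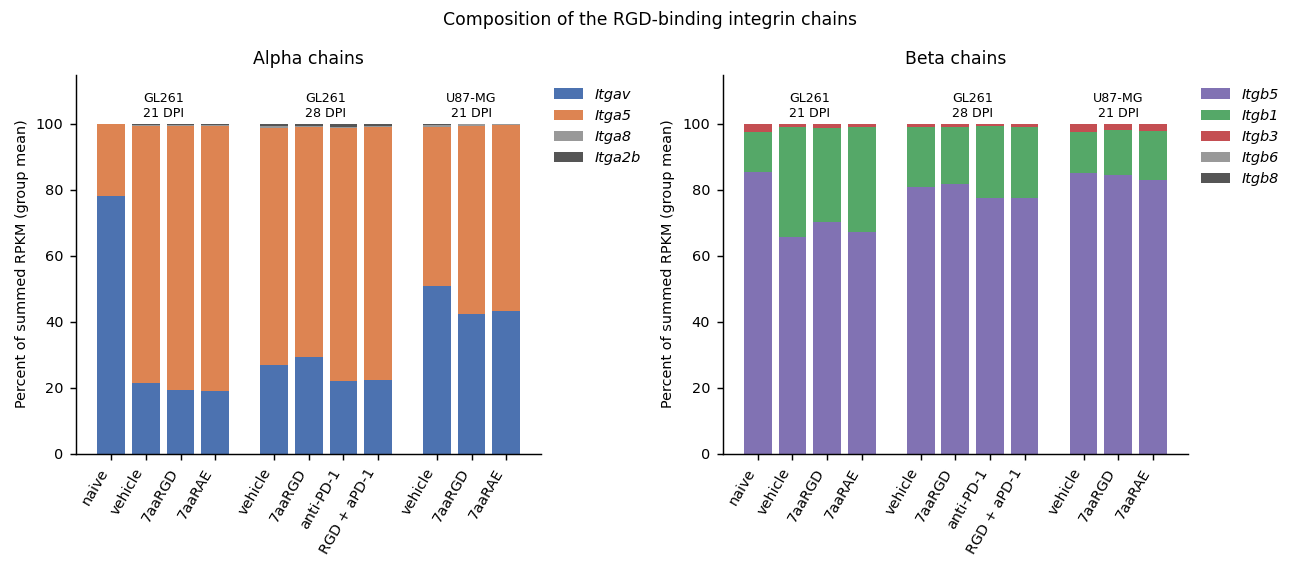
Stacked bars give the group mean share, in percent, of each member in the summed RPKM of the α chains and of the β chains, by group and experiment. *Itgav* fills 78.1% of the α bar in naive mice and 21.3% in GL261 vehicle mice at 21 DPI, and *Itgb5* fills most of the β bar in all 11 groups.

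The first comparison asked how these chains differ between CD11b+ cells of glioma-bearing and naive brain. By the study's methods, vehicle mice also had the cell injection and a pump that delivered water, and none is described for naive mice. Tumor and procedure cannot be told apart in this comparison. All 5 expressed members differed between GL261 vehicle and naive mice, 1 higher and 4 lower. Nearly all genes did so: 82.8% of the 9731 genes tested passed, 34.6% higher and 48.2% lower, so that passing says little in itself and the sizes matter more. *Itgb3* was at 26.9, 26.3 and 28.1 RPKM in naive mice and at 3.82, 2.03 and 3.10 RPKM in vehicle mice. All 3 vehicle samples lay far below all naive samples, and the group means differed 9.08-fold. Its log2 difference was -2.84 with a 95% interval of -3.19 to -2.49 (limma adjusted p = 6.28e-07).

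*Itgb5* was at 903, 891 and 897 RPKM in naive mice and at 221, 166 and 212 RPKM in vehicle mice. The groups did not overlap, and *Itgb5* fell by 2.17 on the log2 scale (interval -2.42 to -1.93, adjusted p = 3.93e-07, limma). *Itgav* was at 33.4, 32.4 and 32.5 RPKM in naive mice and at 12.6, 10.8 and 12.3 RPKM in vehicle mice. It fell by 1.39 (interval -1.54 to -1.24, adjusted p = 3.22e-07, limma), again without overlap. *Itgb1* changed least, from 123, 127 and 129 RPKM to 101, 97.8 and 100.2 RPKM, a log2 difference of -0.34 (interval -0.45 to -0.22, adjusted p = 0.000306, limma).

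*Itga5* went the other way. It was at 8.76, 9.53 and 8.98 RPKM in naive mice and at 41.0, 37.5 and 54.1 RPKM in vehicle mice. Every vehicle sample was above every naive sample, with a log2 difference of 2.15 (interval 1.86 to 2.43, adjusted p = 9.85e-07, limma). The median log2 difference over all genes tested was -0.14, and scaling by median ratios moved it by 0.15. Under that scaling *Itgb1*, whose difference is the smallest, was at -0.16 (adjusted p = 0.0151), and all 5 members kept their call and direction.

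Marker genes of the myeloid cell types moved with this comparison, in which 34.6% of all genes were higher and 48.2% lower. All 12 microglia markers, among them *Tmem119* and *P2ry12*, were lower in vehicle mice, and their summed level was 18554 to 19281 RPKM in naive samples and 1523 to 2219 RPKM in vehicle samples. All 12 monocyte and macrophage markers, among them *Ccr2*, *Ly6c2* and *Arg1*, were higher, with sums of 394 to 432 RPKM and 6144 to 7226 RPKM. Of 7 neutrophil markers tested 1 was higher and 4 were lower, and 2 of 3 dendritic cell markers were higher. Of the lists for cells outside the myeloid lineage, 2 of 2 endothelial markers tested, 3 of 3 astrocyte, 2 of 3 oligodendrocyte lineage and 1 of 2 epithelial markers were higher and none lower. The endothelial sums were 3.29 to 4.01 RPKM in naive and 15.5 to 26.7 RPKM in vehicle samples, the astrocyte sums 2.59 to 3.99 and 14.1 to 19.2 RPKM, the oligodendrocyte lineage sums 8.13 to 8.70 and 13.5 to 20.8 RPKM. The part of these marker changes in the integrin differences was not tested. Of 9 platelet and megakaryocyte markers, only *Gp9* and *Pf4* reached 1 RPKM in naive or vehicle mice, while the platelet receptor genes *Gp1ba* and *Gp1bb* were under 0.05 RPKM. Of the 2 tested, 1 was lower in vehicle mice and none was higher. *Gp9* was at 43.9 ± 2.92 RPKM in naive and 1.78 ± 0.54 RPKM in vehicle mice, and *Pf4* at 15.7 ± 3.35 and 13.5 ± 10.8 RPKM (SD, n = 3).

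**Figure D4:**
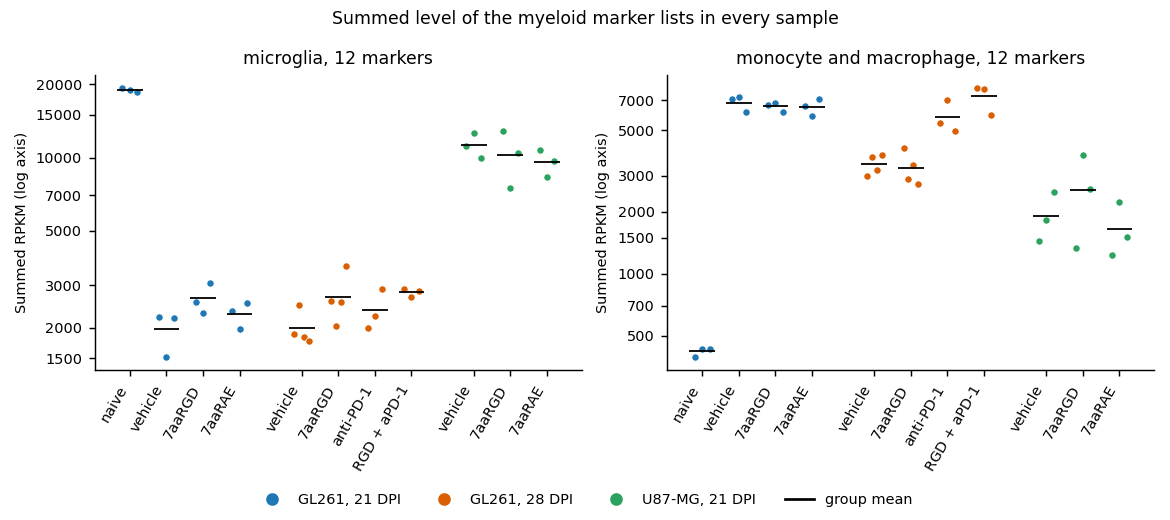
Each point is 1 sample, the vertical log axes give the summed RPKM of the 12 microglia markers and of the 12 monocyte and macrophage markers, and black lines are group means. Naive samples hold 18554 to 19281 RPKM of microglia markers against 1523 to 2219 RPKM in GL261 vehicle samples at 21 DPI, and U87-MG samples hold 7501 to 12795 RPKM.

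Other genes of the pathway were counted from lists, without the members. For each of these lists the shares over all genes were 34.6% higher and 48.2% lower. Of 18 other integrin subunits 9 could be tested, and 6 were higher and 3 lower in vehicle than in naive mice, with a median log2 difference of 0.74 beside -0.14 for all genes. The 4 with the largest differences are leukocyte integrin chains. *Itgax* (CD11c) was at 6.596 ± 0.50 RPKM in naive and 133.7 ± 13.2 RPKM in vehicle mice (SD, n = 3). *Itgal*, the α chain of LFA-1, was at 4.00 ± 0.12 and 81.8 ± 15.0 RPKM. *Itgb7*, the partner of α4, was at 4.23 ± 0.70 and 79.4 ± 15.5 RPKM, and *Itga4*, which with β1 or β7 binds VCAM-1, was at 1.39 ± 0.24 and 17.3 ± 2.30 RPKM.

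Of 24 genes for RGD-type ligands 9 could be tested, and 3 rose and 6 fell, with a median of -0.42. The 3 that rose encode fibronectin (*Fn1*), osteopontin (*Spp1*) and thrombospondin-1 (*Thbs1*). *Fn1* was at 3.37 ± 0.55 RPKM in naive and 190.9 ± 38.7 RPKM in vehicle mice, *Spp1* at 2.69 ± 0.39 and 94.8 ± 41.1 RPKM, and *Thbs1* at 5.33 ± 0.19 and 153 ± 51.2 RPKM (SD, n = 3). *Cyr61*, a matricellular ligand of αv integrins, was at 7.06 ± 3.39 and 0.818 ± 0.26 RPKM, the largest fall in the list. *Vtn*, for vitronectin, was under 1 RPKM on average in all groups.

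Of 34 integrin activation and adhesion adaptors 29 were tested, with 11 higher and 14 lower, beside 34.6% and 48.2% of all genes. The largest differences were those of talin 2 (*Tln2*, log2 difference -2.46 ± 0.11 SE), of *Elmo1*, an adaptor of engulfment (-2.26 ± 0.09), of the clathrin adaptor *Dab2* (2.10 ± 0.16) and of the Src family kinase *Fyn* (1.63 ± 0.06). Among 11 genes of integrin-dependent TGF-β activation and its response, 7 were tested, and 1 rose and 6 fell with a median of -1.18. The largest differences were those of the receptor genes *Tgfbr1* (-2.40 ± 0.11) and *Tgfbr2* (-1.87 ± 0.09) and of the signal transducer *Smad3* (-2.32 ± 0.13). *Smad7*, which encodes an inhibitor of the pathway, came next (-1.18 ± 0.08).

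The next comparisons asked whether blocking the receptors changed the RNA of their own chains at 21 DPI. No member passed for 7aaRGD against vehicle in GL261 mice (limma, 0.148% of 9444 genes passed), and 1 of 5 had an unadjusted p under 0.05, beside 13.6% of all genes. That member was *Itgb5*, at 236, 227 and 260.5 RPKM with 7aaRGD and 221, 166 and 212 RPKM with vehicle. The samples did not overlap, and the log2 difference was 0.28 (interval 0.04 to 0.52, unadjusted p = 0.0284, adjusted p = 0.312, limma). *Itgb3* was at 3.97, 3.47 and 4.98 RPKM with 7aaRGD, overlapping the vehicle samples, with a difference of 0.38 (-0.01 to 0.78). The intervals of *Itgav* (-0.15 to 0.22), *Itga5* (-0.13 to 0.53) and *Itgb1* (-0.17 to 0.09) held 0. The summed microglia markers were at 2300 to 3071 RPKM with 7aaRGD and at 1523 to 2219 RPKM with vehicle, and the summed lymphocyte markers at 5.53 to 14.6 RPKM and 1.66 to 5.41 RPKM. The oligodendrocyte lineage sums (23.5 to 33.5 and 13.5 to 20.8 RPKM), the epithelial sums (79.3 to 118 and 48.9 to 54.7 RPKM) and the dendritic cell sums (80.1 to 96.1 and 65.9 to 74.2 RPKM) did not overlap between these groups either. The mural sums (1.27 to 1.48 and 0.898 to 1.14 RPKM) were also higher with 7aaRGD without overlap. The astrocyte sums did not overlap but were lower, at 10.8 to 13.3 RPKM with 7aaRGD and 14.1 to 19.2 RPKM with vehicle. None of the 12 microglia markers passed, nor did any marker of the other lists. However, 7 of the 12 microglia markers had an unadjusted p under 0.05 (limma), beside 13.6% of all genes. Their median log2 difference was 0.48, beside 0.02 for all genes. The part of these markers in the *Itgb5* values was not tested. None of the genes in the pathway lists passed in the peptide comparisons of either tumor model, and *Spp1*, at 193 ± 20.4 RPKM (SD, n = 3) with 7aaRGD and 94.8 ± 41.1 RPKM with vehicle, had an adjusted p of 0.195 (limma).

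For 7aaRAE against vehicle no member passed (0% of genes passed), and none of the 5 had an unadjusted p under 0.05, beside 6.36% of all genes (limma). *Itgb5* was at 220.2, 207 and 229 RPKM and *Itga5* at 48.8, 50.5 and 51.1 RPKM with 7aaRAE. For 7aaRGD against 7aaRAE, which differ by the RGD motif, again no member passed (0%), with 0 of 5 under an unadjusted 0.05 beside 5.52% of all genes. The intervals of the difference between both peptides were -0.14 to 0.23 for *Itgav*, -0.32 to 0.34 for *Itga5*, -0.21 to 0.05 for *Itgb1*, -0.13 to 0.67 for *Itgb3* and -0.10 to 0.38 for *Itgb5*. These bounds leave room for differences of more than 0.3 in *Itga5*, *Itgb3* and *Itgb5*.

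At 28 DPI 7aaRGD against vehicle gave no member that passed (0.647% of 9740 genes, limma), and 1 of 5 had an unadjusted p under 0.05, beside 14.6% of all genes. *Itgav* was at 9.53, 9.85, 10.6 and 10.1 RPKM with vehicle and at 10.95, 14.4, 10.3 and 12.9 RPKM with 7aaRGD. The groups overlapped in the range of 10.3 to 10.6 RPKM, and the log2 difference was 0.24 (interval 0.04 to 0.44, unadjusted p = 0.0200, adjusted p = 0.248, limma). *Itgb3* spread most among the 7aaRGD mice, at 5.40, 1.58, 3.56 and 8.16 RPKM, around the vehicle values of 5.03, 4.01, 4.12 and 2.49 RPKM. *Itga5* lay close together with 7aaRGD, at 28.8, 28.4, 29.0 and 29.6 RPKM, inside the range of the vehicle samples. The summed microglia markers were at 2032 to 3597 RPKM with 7aaRGD and at 1775 to 2479 RPKM with vehicle, 1 of 12 passed and was higher, and their part in the *Itgav* values was not tested.

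Anti-PD-1 against vehicle gave 1 member, *Itgb1*, that passed and was higher, beside 23.1% of all genes passing and 10.8% higher. *Itgb1* was at 74.7, 74.6, 65.4 and 72.5 RPKM with vehicle and at 92.5, 86.6 and 84.3 RPKM with anti-PD-1. Each treated mouse was above each vehicle mouse, with a log2 difference of 0.29 (interval 0.15 to 0.43, adjusted p = 0.00780, limma). *Itga5*, its partner in the fibronectin receptor, was at 57.01, 35.3 and 29.7 RPKM with anti-PD-1 and at 24.6, 23.0, 32.3 and 28.2 RPKM with vehicle. Sample 1 stood highest and sample 3 lay within the vehicle range, and the difference of 0.53 (interval 0.13 to 0.93) had an adjusted p of 0.0553 (limma). Without anti-PD-1 sample 1 the difference was 0.26 (adjusted p = 0.246), and without sample 3 it was 0.72 (adjusted p = 0.0175, limma).

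RGD + aPD-1 against vehicle gave 2 members that passed, both higher, beside 43.3% of all genes passing and 17.5% higher. *Itgb1* was at 88.7, 98.6 and 89.5 RPKM with the combination, all above the vehicle mice, with a log2 difference of 0.36 (interval 0.22 to 0.50, adjusted p = 0.000838, limma). *Itga5* was at 43.0, 43.1 and 30.4 RPKM, and the lowest of these lay below the highest vehicle sample of 32.3 RPKM. Its log2 difference was 0.50 (interval 0.10 to 0.90, adjusted p = 0.0432, limma). That call was lost in 13 of 25 alternatives, with adjusted p-values of 0.00847 to 0.147. Among these was a fit that gave up 1 residual degree of freedom, made because the replicate differences of both GL261 tables lack 1 dimension. *Itgb1* kept its call in all 25 alternatives, both here and for anti-PD-1. *Itgav*, *Itgb3* and *Itgb5* did not pass, with differences of 0.15 (-0.07 to 0.36), -0.10 (-0.81 to 0.60) and 0.06 (-0.18 to 0.31).

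Combination against 7aaRGD alone gave 1 member that passed, higher (36.6% of all genes passed and 13% were higher). It was *Itgb1*, at 74.6, 78.5, 79.0 and 80.7 RPKM with 7aaRGD, all below the combination mice (log2 difference 0.23, interval 0.09 to 0.38, adjusted p = 0.0142, limma). Without combination sample 2 the *Itgb1* difference was 0.19 and did not pass, so that 0 members were called. *Itga5* did not pass in that comparison (0.39, interval -0.01 to 0.79, adjusted p = 0.113), although its samples did not overlap. These comparisons share samples and are not independent of each other.

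Combination against anti-PD-1 alone gave no member that passed (0.0411% of genes, limma), and 0 of 5 had an unadjusted p under 0.05, beside 15% of all genes. The interval for *Itgb1* was -0.08 to 0.22 and that for *Itga5* -0.46 to 0.40. The interaction of both treatments gave no member either (0% of genes passed), with 0 of 5 under an unadjusted 0.05 beside 8.14% of all genes, so a departure from the sum of the single effects was not detectable for these chains. The largest estimate was that of *Itgav*, -0.23 with an interval of -0.53 to 0.07.

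Markers moved with the anti-PD-1 arms as well. Beside them, 10.8% of all genes passed as higher with anti-PD-1 and 17.5% with the combination (23.1% and 43.3% in either direction). Of the 12 monocyte and macrophage markers, 6 were higher with anti-PD-1 and 6 higher and 1 lower with the combination, and their sums were 2997 to 3787 RPKM with vehicle, 4980 to 6977 RPKM with anti-PD-1 and 5922 to 8027 RPKM with the combination. Of the 12 microglia markers 3 and 7 were higher, with sums of 1775 to 2479, 2004 to 2896 and 2693 to 2889 RPKM. The 8 lymphocyte markers summed to 1.90 to 2.87 RPKM with vehicle, 1.15 to 12.8 RPKM with anti-PD-1 and 6.41 to 18.6 RPKM with the combination. Both dendritic cell markers tested and both endothelial markers tested were higher in each anti-PD-1 arm, as was 1 of 3 astrocyte markers, and 3 of 5 oligodendrocyte lineage markers were lower. Their part in the *Itgb1* and *Itga5* differences was not tested.

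Among other integrin chains, 3 of the 8 tested were higher with anti-PD-1 and 4 were higher and 1 lower with the combination. Of all genes 10.8% were higher with anti-PD-1 and 17.5% with the combination. *Itgb2*, the β chain of the leukocyte integrins including CD11b/CD18, was at 286 ± 16.5 RPKM (SD, n = 4) with vehicle, 392 ± 4.51 (n = 3) with anti-PD-1 and 418 ± 22.3 (n = 3) with the combination. *Itgb7* was at 29.3 ± 4.71, 51.9 ± 10.5 and 56.8 ± 2.74 RPKM, and *Itgal* at 65.1 ± 4.57, 95.8 ± 11.8 and 88.6 ± 4.50 RPKM in these groups. *Itgax* was lower with the combination, at 206 ± 24.3 and 136 ± 32.2 RPKM. Compared with 7aaRGD alone, the combination had lower *Itga6*, the laminin receptor chain, at 33.0 ± 4.23 and 19.2 ± 3.97 RPKM. *Itga6* was at 22.4 ± 1.14 RPKM with vehicle and 18.0 ± 3.73 RPKM with anti-PD-1. The combination samples (15.5 to 23.4 RPKM) overlapped the vehicle samples (21.0 to 23.8 RPKM). All 7aaRGD samples (28.8 to 36.9 RPKM) lay above vehicle, although none of the 8 chains tested passed for 7aaRGD against vehicle.

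The ligand list gave 1 gene higher and none lower with anti-PD-1, and 1 higher and 2 lower with the combination, of 8 tested. For this list and those that follow, 23.1% of all genes passed with anti-PD-1 and 43.3% with the combination (10.8% and 17.5% higher). *Adam15*, a metalloproteinase with an RGD motif in its disintegrin domain, was at 35.7 ± 2.37 RPKM with vehicle, 45.7 ± 2.53 with anti-PD-1 and 46.5 ± 1.80 with the combination. *Mfge8* fell from 5.34 ± 0.67 RPKM with vehicle to 3.12 ± 0.54 with the combination (log2 difference -0.62, adjusted p = 0.0135, limma), and *Postn*, for periostin, from 1.27 ± 0.42 to 0.339 ± 0.15 RPKM. Among 29 adaptors tested, 4 rose with anti-PD-1, among them the kinases *Fyn* and *Syk*. With the combination 5 rose and 6 fell, among them *Syk* and *Tln2*, which rose, and the kindlin *Fermt3* and the GTPase *Rac2*, which fell. Of 8 genes of TGF-β activation and its response tested, 2 rose with anti-PD-1 and 4 with the combination, and none fell. With anti-PD-1 these were *Smad3* and *Nrros*, the latter for a protein that holds latent TGF-β on myeloid cells. With the combination they were *Smad3*, *Nrros*, *Tgfbr2* and *Smad7*, the inhibitor.

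**Figure D5:**
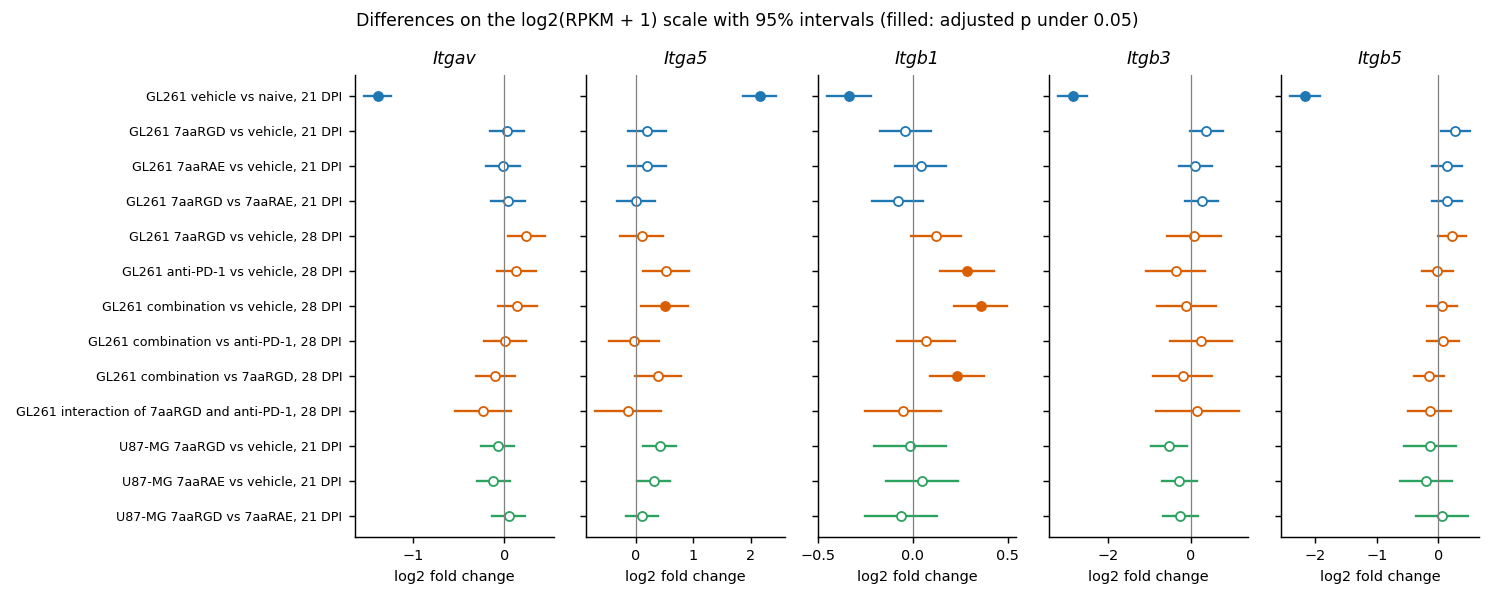
Points give the log2 difference of each expressed member in all 13 comparisons on the log2(RPKM + 1) scale, bars the 95% interval, and filled points an adjusted p under 0.05 (limma). All 5 chains are filled for GL261 vehicle against naive, *Itgb1* in 3 comparisons at 28 DPI and *Itga5* in 1, and no chain is filled in the U87-MG experiment.

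In U87-MG gliomas no member passed for 7aaRGD against vehicle (0% of 9668 genes, limma), but 2 of 5 had an unadjusted p under 0.05, beside 3.78% of all genes. *Itga5* was at 15.2, 16.1 and 16.9 RPKM with vehicle and at 18.0, 23.6 and 24.3 RPKM with 7aaRGD. The samples did not overlap, and the log2 difference was 0.42 (interval 0.14 to 0.70, unadjusted p = 0.00838, adjusted p = 0.941, limma). *Itgb3* was at 17.4, 24.9 and 18.6 RPKM with vehicle and at 18.0, 10.5 and 13.5 RPKM with 7aaRGD, with 1 treated sample inside the vehicle range. Its difference was -0.52 (interval -0.95 to -0.09, unadjusted p = 0.0227, adjusted p = 0.941, limma). *Itgb5* was at 782, 789 and 688 RPKM with vehicle and at 819, 523 and 740 RPKM with 7aaRGD, and the same sample was lowest for *Itgav*, *Itgb1*, *Itgb3* and *Itgb5*.

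For 7aaRAE against vehicle no member passed either (0.0103% of genes, limma), and 1 of 5 had an unadjusted p under 0.05, beside 7.72% of all genes. This was *Itga5* again, at 19.4, 22.8 and 18.5 RPKM with 7aaRAE (difference 0.31, interval 0.03 to 0.59, unadjusted p = 0.0332, adjusted p = 0.583, limma). *Itgav* was at 15.4, 15.2 and 15.9 RPKM with 7aaRAE, below all vehicle samples at 16.5, 16.8 and 17.4 RPKM, with a difference of -0.12 whose interval of -0.30 to 0.06 held 0. Between 7aaRGD and 7aaRAE no member passed (0%), and 0 of 5 had an unadjusted p under 0.05, beside 3.38% of all genes. The interval of that difference was -0.18 to 0.39 for *Itga5* and -0.68 to 0.18 for *Itgb3*. The summed microglia markers were at 9929 to 12651 RPKM with vehicle, 7501 to 12795 RPKM with 7aaRGD and 8329 to 10737 RPKM with 7aaRAE, so these groups overlapped. The 7aaRGD sample lowest for those 4 chains also had the lowest microglia sum of all U87-MG samples, 7501 RPKM, and the highest monocyte and macrophage sum, 3768 RPKM, beside 1440 to 2493 RPKM with vehicle. Neutrophil markers summed to 67.8 to 339 RPKM with 7aaRGD and 48.8 to 83.5 RPKM with vehicle. Lymphocyte sums were 2.15 to 6.36 RPKM with vehicle, 1.38 to 1.91 RPKM with 7aaRGD and 0.385 to 0.921 RPKM with 7aaRAE. These lymphocyte ranges did not overlap, and none of the 8 genes passed the filter on low values. With 7aaRAE the dendritic cell sums (3.85 to 4.44 RPKM, vehicle 4.49 to 6.56) and platelet sums (9.48 to 18.9 RPKM, vehicle 19.2 to 32.0) lay below vehicle. The part of these markers in the integrin values was not tested.

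Side by side and without a test, the vehicle groups of the 3 experiments differed in which chain was high. *Itgb3* was at 2.98 ± 0.90 RPKM (SD, n = 3) in GL261 mice at 21 DPI, 3.91 ± 1.05 (n = 4) at 28 DPI and 20.3 ± 4.01 (n = 3) in U87-MG mice. *Itga5* was at 44.2 ± 8.75, 27.1 ± 4.14 and 16.1 ± 0.83 RPKM in this order. *Itgb5* was at 199.8 ± 29.2, 321 ± 40.9 and 753 ± 56.4 RPKM, and *Spp1* at 94.8 ± 41.1, 275 ± 90.0 and 1535 ± 266 RPKM. The paper describes 7aaRGD as made against SPP1 and MFG-E8 from glioma cells, while these *Spp1* values come from CD11b+ cells. All 3 tables were normalized separately. GL261 mice at 21 DPI and U87-MG mice also differ in tumor line and host strain. Both GL261 tables share the tumor line but differ in time and in animals per sample (2 at 21 DPI, 1 at 28 DPI). The methods and sample titles disagree on the host strain at 28 DPI. These differences cannot be told apart.

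For each expressed chain the genes with the most similar pattern were named by the mean of its Pearson correlations within the 3 tables (12, 14 and 9 samples) among 9073 genes at a mean of at least 1 RPKM in each table. At 21 DPI these correlations mostly follow the gap between naive and tumor-bearing mice, and samples of a group share their treatment, so they are descriptions without a test. *Itgb5* was most like *Golm1* (mean r = 0.936), the tetraspanin *Cd81* (0.927) and the microglia marker *Tmem119* (0.924), and its correlation with *Tmem119* was 0.797 at 28 DPI and 0.977 in U87-MG mice. *Itgb3* was most like *Ccdc85c* (0.897), *St3gal5* (0.867) and *Cxxc5* (0.856). *Itgav* was most like *Dtx4* (0.924), *Cog5* (0.854) and *Arhgap27* (0.846).

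*Itga5* was most like the cytoskeletal linker *Plec* (0.941), *Fam129b* (0.927) and *Lrrc42* (0.901). *Itgb1* was most like *Hspa13* (0.827), *Itfg1* (0.816) and *Spcs3* (0.814). Among the members, *Itgb3* and *Itgb5* were the most alike, with r of 0.998 at 21 DPI, 0.520 at 28 DPI and 0.709 in U87-MG mice. *Itga5* correlated negatively with *Itgb3* in each table (-0.960, -0.119 and -0.822) and with *Itgb5* (-0.962, -0.303 and -0.656). *Itga5* and *Itgb1*, which form a receptor, were at -0.909, 0.675 and -0.194, so the sign differed between experiments.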

How the data were processed

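RNA of FACS-sorted CD11b+ cells from 35 samples was analysed in 3 tables. By the methods of the study, the authors used Trimmomatic for trimming, STAR for alignment (mm10), Picard to flag duplicates and HTSeq-count 0.11.1 with reverse strand to count. The deposited values are RPKM to which the authors added a constant of 2; both were read from the values, since rows without signal hold exactly the constant. In each sample 6.6% to 18% of values lay under the constant, and log2(RPKM + 1) varied within groups in 7 of 8 and 9 of 10 possible dimensions in the GL261 tables (6 of 6 for U87-MG). The step behind this is not given in the sources used here, and it may have reduced the spread between samples of a group. Depth per sample is unknown.

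The constant was subtracted, negative values were set to 0 for tests, and log2(RPKM + 1) was fitted with limma 3.58.1 in R 4.3.3 (eBayes with a trend) over protein-coding genes whose mean reached 1 RPKM in the fit. Naive and vehicle samples were fitted alone, other comparisons with all tumor-bearing groups of their table. NOISeq, the test of the study, and count tests were not run. The script was tested on simulated data. Positions are from GENCODE M21.

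The members, lists and tests were chosen with earlier results of these data known. Named genes were the members, the 3 genes most alike to each expressed member, and from each list the passing genes with the largest differences, up to 4 in vehicle against naive and in the combination against vehicle and up to 3 elsewhere. Single markers, *Itgam*, *Vtn*, and *Spp1* beyond vehicle against naive were added after their values were seen. Alternatives were 2 other pseudocounts, 2 other filters, another scaling, other samples in the fit, all named genes, a replicate block, eBayes without a trend, 1 residual degree of freedom less, a threshold of 0.1 and leaving out each sample. A few genes of the lists are not reported here by name.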

Additional observations from a re-analysis of the deposited data

How the results depend on the processing

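The 5 calls of GL261 vehicle against naive held under all alternatives run, as did *Itgb1* in the anti-PD-1 and combination comparisons with vehicle. The count for anti-PD-1 against vehicle went from 1 to 2 with median-of-ratios scaling and at an adjusted p under 0.1, and was 1 to 2 with samples left out (2 without vehicle 3, anti-PD-1 3 or combination 3), since *Itga5* then passed. The count for the combination against vehicle went from 2 to 1 without a filter, with 1 residual degree of freedom less and with the replicate block, and was 1 to 2 with samples left out: *Itga5* was lost without vehicle 1, 2 or 4, any of the 4 7aaRGD samples, anti-PD-1 2, or combination 1 or 2. The count for the combination against 7aaRGD was 2 in a fit of only these 2 groups and 0 to 2 with samples left out (2 without anti-PD-1 1, 0 without combination 2). Counts of the other 9 comparisons stayed at 0 throughout.

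Signs turned only in differences that did not pass. With median-of-ratios scaling *Itga5* was at -0.0175 for 7aaRGD against 7aaRAE (GL261) and 0.0228 for the combination against anti-PD-1, and *Itgb1* at 0.0139 for the interaction. With single samples left out, log2 differences ranged as follows. At 21 DPI in GL261 mice, 7aaRGD against vehicle gave *Itgav* -0.0281 to 0.0796 and *Itgb1* -0.0769 to 0.00523, 7aaRAE against vehicle gave *Itgav* -0.0725 to 0.0587 and *Itgb3* -0.0718 to 0.26, and 7aaRGD against 7aaRAE gave *Itga5* -0.0672 to 0.15 and *Itgav* -0.0254 to 0.0930. At 28 DPI, *Itgb3* ranged from -0.19 to 0.42 for 7aaRGD against vehicle, -0.27 to 0.00490 for the combination against vehicle, -0.52 to 0.0867 for the combination against 7aaRGD and -0.16 to 0.44 for the interaction. *Itgb5* ranged from -0.0710 to 0.0660 for anti-PD-1, *Itga5* from -0.22 to 0.24 and *Itgav* from -0.0568 to 0.0700 for the combination against anti-PD-1, and *Itga5* from -0.33 to 0.13 for the interaction. In U87-MG mice, 7aaRGD against vehicle gave *Itgav* -0.11 to 0.00359, *Itgb1* -0.0626 to 0.0299 and *Itgb5* -0.27 to 0.0505, and 7aaRGD against 7aaRAE gave *Itgb5* -0.10 to 0.25. The cause was not tested.

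Same-numbered residuals correlated over 0.1 in 1 of 9 pairs at 21 DPI (-0.774 to 0.123) and 3 of 19 at 28 DPI (-0.499 to 0.366). This check cannot exclude a pairing by replicate number. The groups are small, and the replicate differences of both GL261 tables lack 1 dimension through a step that is not known. With the replicate block the counts were 5 for vehicle against naive, 1 for anti-PD-1, 1 for the combination against vehicle, 1 for the combination against 7aaRGD and 0 elsewhere. No paired analysis was possible for U87-MG because its columns carry no replicate numbers. The 4 scarce chains were under the filter, so differences in them were tested only without it. No member stood apart by Dixon's test in the groups of 4 samples.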
